A study of Homo sapiens with 2 samples.

Results

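The zinc transporters and metallothioneins are the genes that carry zinc across membranes and hold it inside the cell. They were taken as every probe set whose single gene symbol in the platform annotation was MT2A, MT1 followed by 1 letter, or SLC30A or SLC39A followed by a number. This gave 68 probe sets for 31 of the 19775 genes measured, namely 7 metallothioneins, 10 SLC30A transporters and 14 SLC39A transporters. The rule itself uses symbols and no measured value. For each gene the main probe set was the one with the highest mean over both arrays, and the other probe sets were used to see whether they gave the same direction.

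The samples were QGP1 cells, an established human cell line from a pancreatic neuroendocrine tumour. The ALDH high group was sorted by flow cytometry for high activity of aldehyde dehydrogenase (ALDH), an enzyme activity by which stem-like tumour cells are often sorted, and the control group is labelled only as control QGP1 cells, with no word on whether it went through the sorter. Each group had 1 Affymetrix array, and the series asked which genes mark the ALDH-high cells. A single array stood for each group, so no difference below has a replicate error or a p-value. The labels name no drug or genetic change in either group.

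Zinc levels in the cytosol are set by opposing transporter families and a buffer. SLC30A proteins (ZnT) move zinc out of the cytosol, into organelles, secretory granules or the medium, whereas SLC39A proteins (ZIP) move it into the cytosol from outside or from organelles. Metallothioneins are small cysteine-rich proteins that bind zinc, copper and cadmium, and their genes lie side by side in a cluster. When zinc rises, the factor MTF1 binds metal response elements in front of the metallothionein genes and of SLC30A1 and turns them on. In islet beta cells SLC30A8 loads insulin granules with zinc.

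The core of the metal response element was looked up in the promoters because it is the sequence through which zinc is known to act on these genes. Both spellings of the core, TGCACNC and TGCGCNC, were searched on both strands of the 250 bases before each gene start in RefSeq's promoters of GRCh38.p14. Promoters were found for 24 of the 31 genes, some with more than 1 start. Of the 7 metallothioneins only 3, MT2A, MT1H and MT1X, had one, so the matches do not describe the whole family. The sequences of 3 metallothioneins and of SLC30A1 are shown from 5′ to 3′ along the gene's own strand, with the core in capitals where it matched; a match on the opposite strand reads in reverse complement.

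MT2A, chr16:56608334-56608583, plus strand: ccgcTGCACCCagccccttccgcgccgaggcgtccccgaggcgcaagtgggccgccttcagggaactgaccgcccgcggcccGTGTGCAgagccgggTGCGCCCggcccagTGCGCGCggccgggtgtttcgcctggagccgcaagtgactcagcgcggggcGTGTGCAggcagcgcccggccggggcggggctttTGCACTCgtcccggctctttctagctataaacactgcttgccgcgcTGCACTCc
MT1H, chr16:56669564-56669813, plus strand: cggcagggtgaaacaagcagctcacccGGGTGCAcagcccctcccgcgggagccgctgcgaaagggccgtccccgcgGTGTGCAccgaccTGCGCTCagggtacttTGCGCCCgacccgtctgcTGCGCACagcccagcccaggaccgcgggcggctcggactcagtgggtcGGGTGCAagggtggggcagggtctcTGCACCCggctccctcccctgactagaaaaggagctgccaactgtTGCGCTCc
MT1X, chr16:56682220-56682469, plus strand: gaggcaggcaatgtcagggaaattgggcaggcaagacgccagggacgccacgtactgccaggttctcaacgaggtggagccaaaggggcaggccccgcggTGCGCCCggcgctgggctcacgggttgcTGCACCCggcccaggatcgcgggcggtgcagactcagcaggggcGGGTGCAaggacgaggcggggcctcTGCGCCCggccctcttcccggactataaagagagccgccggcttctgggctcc
SLC30A1, chr1:211579162-211579411, minus strand: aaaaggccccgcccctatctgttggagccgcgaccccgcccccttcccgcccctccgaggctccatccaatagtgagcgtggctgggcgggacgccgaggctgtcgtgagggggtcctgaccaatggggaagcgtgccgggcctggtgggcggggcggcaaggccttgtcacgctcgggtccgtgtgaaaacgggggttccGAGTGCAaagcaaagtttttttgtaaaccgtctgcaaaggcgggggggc

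MT2A held 7 matches, MT1H 8 and MT1X 4, and no matches overlapped each other. Of 35116 promoters of this length, 24.8% held at least 1 match, 0.370% at least 4 and 0.0313% at least 7. SLC30A1 held 1 match, on the opposite strand. Among the other transporters with a promoter in the table, SLC30A2 held 3 and SLC30A3 2 at 1 of its starts, and the SLC39A genes held at most 1. A match is only a description of these letters, not a binding site.

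None of the 31 genes was over 2-fold different between ALDH-high and control cells. Among all 19775 genes this threshold was passed by 1.69%, of which 0.465% were on the higher and 1.23% on the lower side, so a count of 0 is close to the background. At 1.5-fold the count was also 0, where 6.82% of all genes passed, 2.61% higher and 4.21% lower. The largest difference of any member was that of SLC39A11, 1.42-fold lower, and 9.19% of all genes differed by more than it did. The median absolute log2 difference was 0.16 for the members and 0.16 for all genes. Zinc transport and storage genes were therefore measured at nearly the same levels on both arrays.

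**Figure D1:**
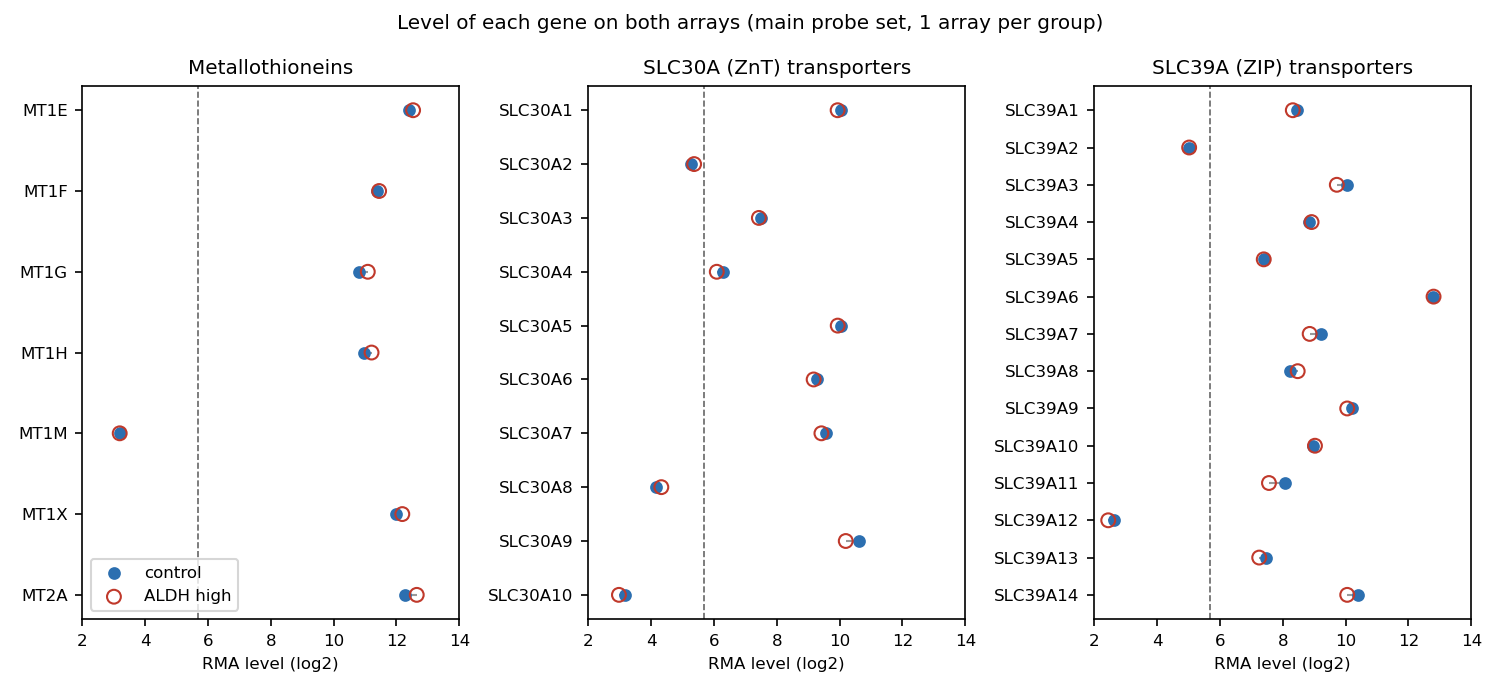
RMA level (log2, horizontal axis) of the main probe set of each gene, with filled points for the control array and open circles for the ALDH-high array; the dashed line is the median level of all probe sets, 5.68. The points of each gene nearly coincide, and 25 of the 31 genes lie at or above the line on at least 1 array, beside 12828 of all 19775 genes.

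Within these small differences most metallothioneins were higher on the ALDH-high array, and most SLC30A and SLC39A genes were lower. Of 7 metallothioneins, 6 lay above 0 and 1 was equal on both arrays, while 45.6% of all genes lay above 0. Of 10 SLC30A genes, 8 lay below 0, and of 14 SLC39A genes, 9 (64.3%) did, against 50.3% of all genes. The median log2 difference was 0.19 for metallothioneins, -0.11 for SLC30A and -0.14 for SLC39A, beside -0.01 for all genes.

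Several measured values of the arrays are of the same size as these differences. The probe sets of one gene differed from each other with a pooled SD of 0.23 over 10523 genes. Of the 31 members, 9 exceeded it, 4 higher and 5 lower, against 35.7% of all genes. Over probe sets with a mean at or above the median level this SD was smaller, 0.18. The 24 poly-A spike controls, bacterial RNAs added before labelling, were all higher on the ALDH-high array, by 0.32 on average (SD 0.07 over probe sets). In either direction 6 members (19.4%) differed by more than that average, against 22.6% of all genes, and its part in the results was not tested. The 18 hybridisation controls differed by 0.05 (SD 0.04 over probe sets), and the 3′ to 5′ ratio was 1.83 on the ALDH-high and 1.67 on the control array for ACTB and 1.14 and 1.15 for GAPDH. In bulk RNA, fewer cells with a transcript and less of it per cell cannot be told apart.

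**Figure D2:**
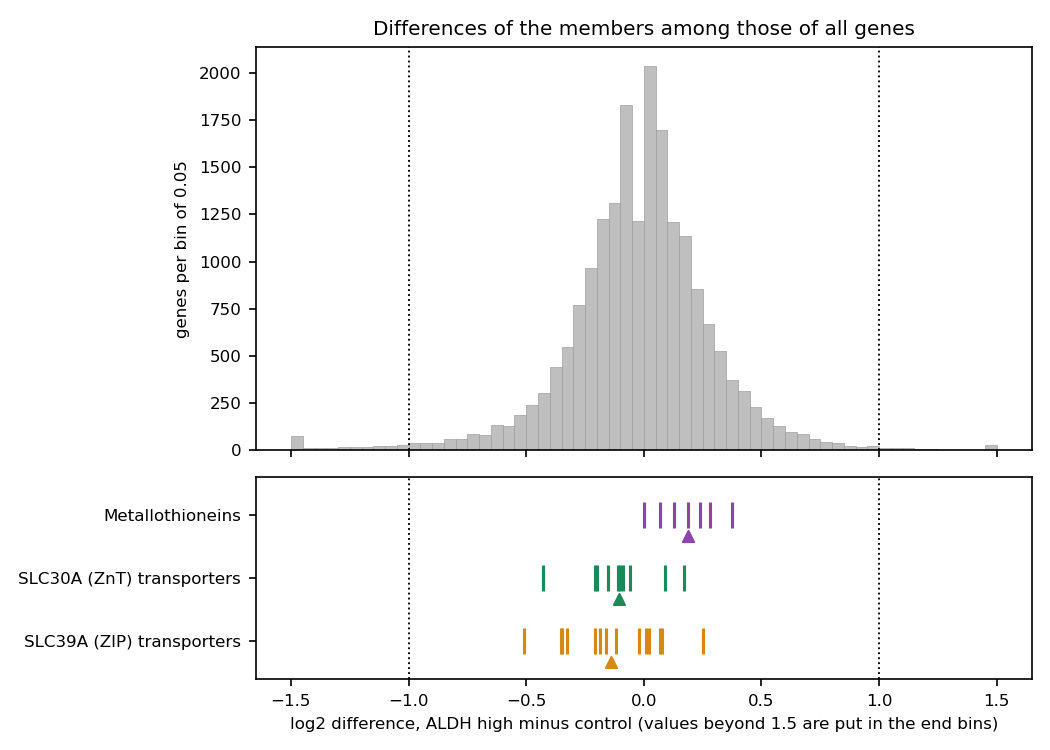
Histogram of the log2 difference (ALDH high minus control) of all 19775 genes in bins of 0.05, with the members of each family as ticks underneath and a triangle at the family's median; dotted lines mark 2-fold. The members lie inside the bulk of the distribution, with metallothioneins from 0 to 0.37, SLC30A from -0.43 to 0.17 and SLC39A from -0.51 to 0.25.

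The metallothioneins gave high signals on both arrays. MT2A, a main inducible form in most human tissues, was measured at 12.65 in ALDH-high and 12.27 in control cells, a 1.29-fold higher level and the largest difference of the family. Of all genes, 7.52% had a difference as high or higher. MT2A has a single probe set, so no second measurement bears on it.

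MT1G was next, at 11.09 in ALDH-high and 10.80 in control cells (1.22-fold higher). MT1H, its neighbour in the cluster, was at 11.21 and 10.97 (1.18-fold higher), and MT1X at 12.186 and 11.998 (1.14-fold higher). All of these are MT1 isoforms, close copies of one another that bind metal in the same way. MT1E stood at 12.53 in ALDH-high and 12.40 in control cells, and MT1F at 11.45 and 11.38. MT1M had the same value on both arrays, 3.19, a dim level.

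The probe sets of this family cannot be read as separate measurements of separate genes. All 9 bright metallothionein probe sets have IDs ending in _x_at, which marks probes that can bind several similar transcripts, and 8 of these 9 were higher in ALDH-high cells. The exception was the second probe set of MT1F, at 10.68 in ALDH-high and 10.79 in control cells. The second MT1X probe set (11.45 against 11.32) was designed on an accession that RefSeq assigns to the pseudogene MT1L. The probe set of MT1HL1, a near copy of MT1H outside the cluster that was named because of its likeness, was at 12.27 and 12.07.

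The only metallothionein probe sets without shared targets were dim, and neither was higher in ALDH-high cells. They were the MT1M probe set above and a second MT1G probe set, at 3.49 in ALDH-high and 3.67 in control cells. Without shared-target probe sets the family's median was therefore -0.090, on these 2 genes, in place of 0.19. Over all compared probe sets the same absolute difference occurred on 2877 for MT1M and on 72 for MT1G. Neither value is therefore particular to its gene. The direction of the family rests on signals that its members, and close copies outside it, may share.

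**Figure D3:**
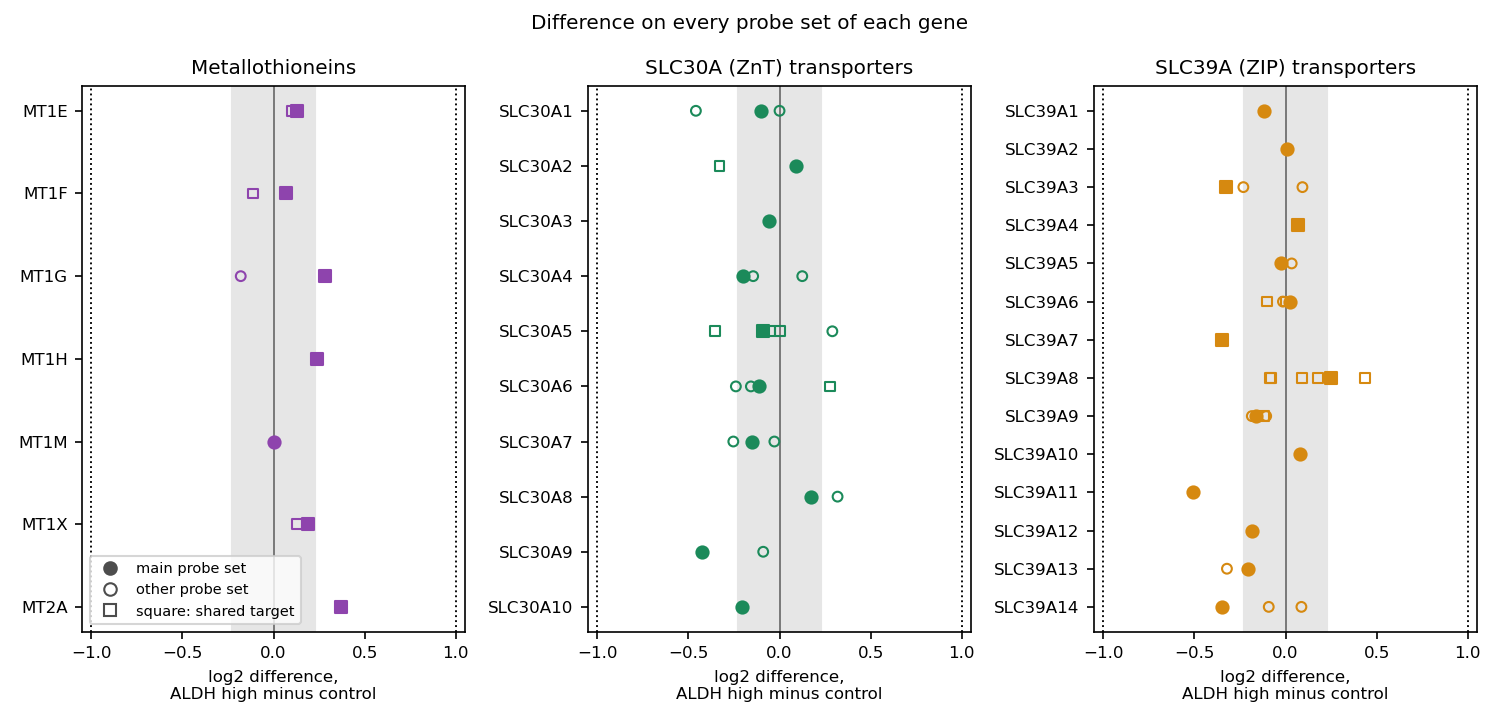
Log2 difference (ALDH high minus control) of all 68 probe sets by gene, with filled marks for the main and open marks for other probe sets, squares for probe sets that can bind several transcripts, a grey band at the pooled SD of 0.23 between probe sets of a gene and dotted lines at 2-fold. Every probe set lies between -0.51 and 0.44, inside the dotted lines, and the bright metallothionein marks are all squares.

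Among the SLC30A exporters, the 7 genes at or above the median level all lay below 0, by 0.06 to 0.43 on the log2 scale, where 50.6% of all genes at such levels lay below 0. SLC30A9, which is found in mitochondria, differed most, at 10.19 in ALDH-high and 10.62 in control cells, or 1.34-fold lower. Its second probe set, at 8.75 and 8.84, had a smaller difference of -0.09. As the mean of both probe sets SLC30A9 differed by -0.26.

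SLC30A1, the exporter of the plasma membrane and itself an MTF1 target, was at 9.94 in ALDH-high and 10.04 in control cells (1.07-fold lower). A second SLC30A1 probe set was at 7.03 and 7.49 (1.37-fold lower), and the remaining one was equal and dim, at 3.71. Both bright SLC30A1 probe sets were thus lower, the main one by 0.10 on the log2 scale, less than the spread of 0.23 between probe sets of a gene. A part of zinc or MTF1 in these levels was not tested.

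The exporters of the early secretory pathway differed alike and little. SLC30A5 and SLC30A6 work as a pair there, and SLC30A7 serves the Golgi; together they supply zinc to secreted enzymes. SLC30A5 was at 9.94 in ALDH-high and 10.03 in control cells, SLC30A6 at 9.17 and 9.28, and SLC30A7 at 9.42 and 9.57. All 3 probe sets of SLC30A7 were lower, from -0.25 to -0.03, whereas the 5 of SLC30A5 ran from -0.35 to 0.29 and the 4 of SLC30A6 from -0.24 to 0.28. The direction of SLC30A5 and SLC30A6 therefore depends on the probe set, and the single SLC30A5 probe set without shared targets was 1.22-fold higher.

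The exporters of granules and vesicles were dim or differed by less than 0.23, the spread between probe sets of a gene. SLC30A8, the zinc transporter of insulin granules, was below the median level on both arrays, at 4.33 in ALDH-high and 4.15 in control cells, and its second probe set at 4.02 and 3.70. Both leaned higher, at a brightness where a level cannot be told from absence. SLC30A3, known from synaptic vesicles, was at 7.43 and 7.49, and SLC30A4, of endosomes and lysosomes, at 6.09 and 6.29. The SLC30A4 difference, -0.20, exceeded the spread of 0.18 between probe sets at or above the median level. Its dim probe sets differed by 0.12 and -0.14. SLC30A2, known from secretory vesicles of the mammary gland, was at 5.37 and 5.28 on its main probe set and at 5.15 and 5.48 on the other, with opposite signs. SLC30A10, which exports mainly manganese, was dim at 2.98 and 3.18.

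The SLC39A importers differed unevenly, with 9 of 14 lower and the largest differences spread over organelle and plasma membrane transporters. SLC39A11 differed most of all members, at 7.56 in ALDH-high and 8.07 in control cells (1.42-fold lower), on its only probe set. SLC39A7, which releases zinc from the endoplasmic reticulum, was at 8.86 and 9.21 (1.28-fold lower). SLC39A13, of the early secretory pathway and known for its role in connective tissue, was at 7.25 and 7.46, and both of its probe sets were lower, by 0.21 and 0.32 on the log2 scale.

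SLC39A14 and SLC39A8 are close relatives that carry iron and manganese as well as zinc, and they differed in opposite directions. SLC39A14, which inflammation is known to induce in liver, was at 10.05 in ALDH-high and 10.40 in control cells (1.27-fold lower), while its other probe sets were dim, with differences of -0.09 and 0.09. SLC39A8 was at 8.47 and 8.22 (1.19-fold higher), and its second bright probe set at 7.02 and 6.93. Of the 6 SLC39A8 probe sets 4 were higher, the largest difference, 0.44, being on a dim one, and all 6 can bind several transcripts.

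SLC39A6 and SLC39A10, which form a complex at the plasma membrane and are linked to cell migration, were level. SLC39A6 was at 12.80 in ALDH-high and 12.77 in control cells, and its 4 probe sets ran from -0.10 to 0.02. SLC39A10 was at 9.02 and 8.95. Both differences lie well inside the spread of 0.23 between probe sets of a gene.

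SLC39A3, a plasma membrane importer, was at 9.72 in ALDH-high and 10.05 in control cells (1.26-fold lower), close in size to SLC39A7 and SLC39A14, with its less bright probe sets at -0.23 and 0.09. Its relatives SLC39A1, at 8.32 and 8.44, and SLC39A2, dim at 5.02 and 5.01, differed less. These and the importers that follow differed by less than 0.23, the spread between probe sets of a gene. SLC39A9, of the Golgi, was at 10.05 and 10.21, and all 4 of its probe sets were lower, from -0.19 to -0.11, the most even of the genes with 4 or more probe sets. SLC39A4, the intestinal uptake transporter lost in acrodermatitis enteropathica, was at 8.92 and 8.85, and SLC39A5, known from pancreas and intestine, at 7.39 and 7.42. SLC39A12, a brain transporter, was dim at 2.44 and 2.63.

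Of the 19 members with several probe sets, all probe sets of a gene pointed the same way in 7. These were MT1E and MT1X (higher, on shared-target probe sets only), SLC30A8 (higher, dim), and SLC30A7, SLC30A9, SLC39A9 and SLC39A13 (lower). The same share over all genes with several probe sets was not counted, so the 7 are a description only. The pooled SD between probe sets of a member was 0.19, and 18 of the 31 members (58.1%) differed by no more than that on their main probe set, beside 56.1% of all genes.

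Genes that sense or share metals with this system were set beside it, from lists of 12 zinc and metal response genes, 11 copper genes and 9 iron and manganese genes. MTF1, the zinc-sensing activator, was at 8.69 in ALDH-high and 8.48 in control cells (1.16-fold higher), and all 3 of its probe sets were higher, by 0.12 to 0.34. None of the 12 zinc and metal response genes was over 2-fold different, against 1.69% of all genes. Above 0 lay 8 (66.7%), against 45.6% of all genes, and 4 lay below. The median of the 12 was 0.18. The largest difference was that of CREBBP, a coactivator of transcription, at 9.35 and 8.47 (1.83-fold higher), but 2 of its 4 probe sets were lower. HMOX1, the stress-inducible heme oxygenase, was at 5.33 and 5.73 (1.32-fold lower), and TXNRD1, a thioredoxin reductase, at 11.99 and 12.22, with both of its probe sets lower. MT3 and MT4, metallothioneins of brain and of stratified epithelium that the symbol rule leaves out, were at 7.48 and 7.31 and at 6.08 and 5.90.

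Copper and iron genes held a few larger differences, all lower in ALDH-high cells. Of 11 copper genes, 8 (72.7%) lay below 0, against 50.3% of all genes. Only CP, the copper-binding plasma protein ceruloplasmin, was over 2-fold different, as were 1.69% of all genes. CP was at 5.23 in ALDH-high and 8.52 in control cells, with all 4 probe sets lower. The copper exporter ATP7B was 1.62-fold lower, though its second probe set differed by 0.09 in the opposite direction, and the copper importer SLC31A1 was 1.52-fold lower, with all 3 probe sets lower. The median of the copper genes was -0.08. Of 9 iron and manganese genes, 7 had a probe set with a single gene symbol, while FTH1 and IREB2 had none and were left out. None of the 7 was over 2-fold different, and their median was -0.10. The largest difference was that of the iron exporter SLC40A1, at 6.50 and 7.43 (1.91-fold lower), but its other probe set differed by 0.31 in the opposite direction.

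**Figure D4:**
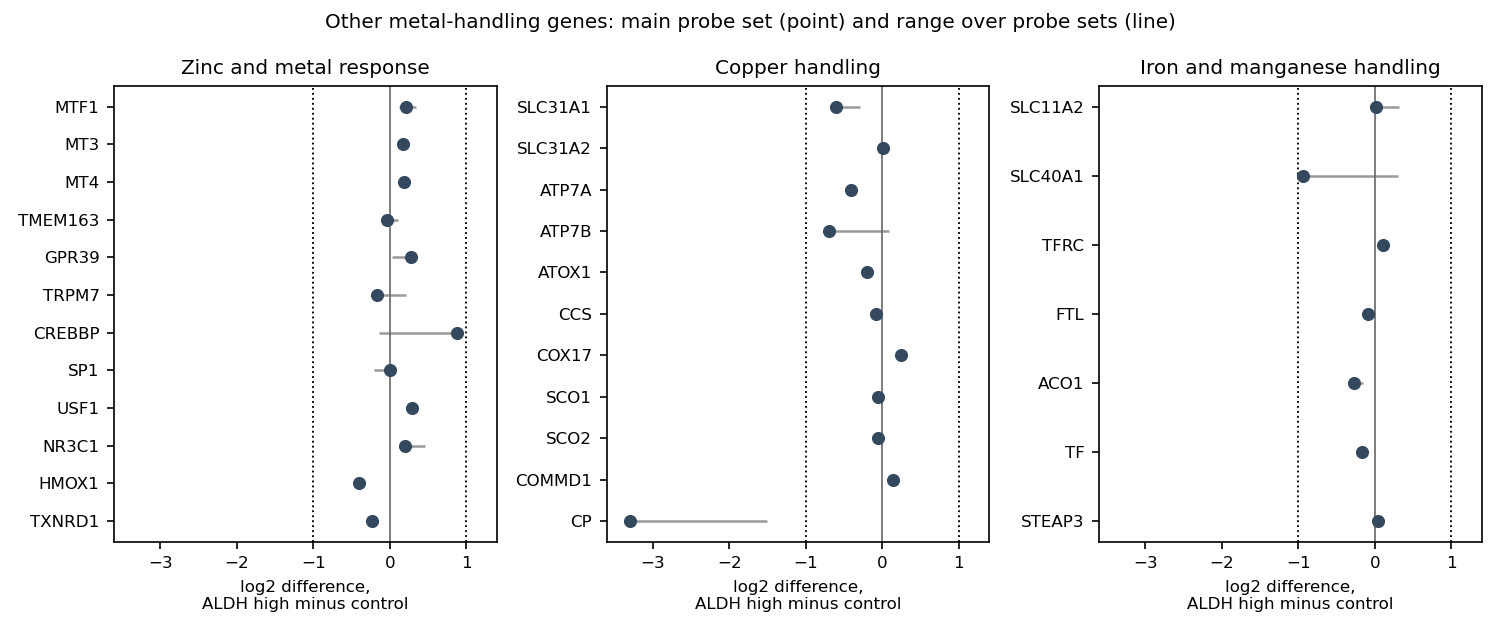
Log2 difference (ALDH high minus control) of the main probe set (point) and range over all probe sets (line) of genes of metal response, copper handling, and iron and manganese handling; dotted lines mark 2-fold. CP, at -3.29, is the only point beyond 2-fold, and the line of SLC40A1 crosses 0.

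Of 10 neuroendocrine and epithelial markers listed for the labelled cell type, 8 had a probe set with a single gene symbol. NEUROD1 and PCSK1 had none and were left out. All 8 were above the median level on both arrays. CHGA, a secretory granule protein of neuroendocrine cells, was at 11.50 in ALDH-high and 11.70 in control cells. The largest difference of the 8 was that of INSM1, at 11.47 and 11.13 (1.27-fold higher), with both of its probe sets higher. The least bright of the 8, SYP, was at 6.48 on both arrays. None of the 8 was over 2-fold different (median -0.01), against 1.69% of all genes. Among markers of other cells, 4 of 6 fibroblast, 3 of 4 leukocyte and 3 of 4 endothelial genes were below the median level on both arrays. The leukocyte marker CD68 was left out for lack of a probe set with a single gene symbol. Of all 19775 genes, 12828 were at or above that level on at least 1 array. The fibroblast marker COL1A1, at 7.46 in ALDH-high and 7.74 in control cells, was brighter than SYP. The leukocyte markers LYZ (2.52-fold) and CD14 (2.03-fold), both below the median level, were over 2-fold lower. LYZ was at 5.67 on the control array, just under that level of 5.68, and its other probe set differed by only -0.42. The part of LYZ and CD14 in the results was not tested.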

How the data were processed

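One array of ALDH-high and 1 of control QGP1 cells were compared, 54675 probe sets each. The submitters' processing notes name RMA, and the deposited values are on its log2 scale. This method subtracts background, gives all arrays the same distribution by quantile normalisation and fits 1 level per probe set, so a shift shared by most genes is removed. Its version and a genome build are not stated by the sources used here. No coordinates are therefore given for the array values. The 62 Affymetrix controls were left out of comparisons, which left 54613 probe sets (array medians 5.68 for both). Symbols came from GEO's platform annotation, where 41097 probe sets had 1 symbol; Entrez IDs found 41043 of them in RefSeq (GRCh38.p14), which changed 0. Of 68 member probe sets, 22 had an accession that RefSeq's transcripts give to the same gene, 1 to another gene, and 45 were not in that table.

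Each gene's control level was subtracted from its ALDH-high level (both log2), no test was made, and the threshold was 2-fold. The number of arrays limits the precision. Members and lists were chosen with earlier results of these data known. Genes named with both levels are all members, MTF1, MT3, MT4, CHGA, and from the metal gene lists those over 2-fold and the largest difference. Markers of other cells over 2-fold were named with their folds. The largest differences among fibroblast and endothelial markers were not named. SLC31A1, ATP7B, HMOX1, TXNRD1, MT1HL1, SYP, COL1A1 and INSM1 were added after their values were seen. Alternatives were the mean or median of probe sets, no shared-target probe sets (IDs ending in _s_at or _x_at), a pseudocount of 32, centred arrays, a filter at the median level and a threshold of 1.5-fold. The counting step was tested on simulated data. Python 3.11.15, NumPy and pandas were used.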

Additional observations from a re-analysis of the deposited data

How the results depend on the processing

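The counts of members over 2-fold higher and over 2-fold lower were 0 under each of the 7 alternatives tried, the threshold of 1.5-fold included. The largest absolute difference of a member was 0.44 with the pseudocount, 0.50 with centred arrays and 0.51 otherwise. The SLC30A median stayed between -0.13 and -0.09 and the SLC39A median between -0.16 and -0.07. The metallothionein median was 0.11 as the mean or median of the probe sets of a gene and 0.21 over the 6 bright genes, but -0.090 without shared-target probe sets, a setting that leaves 2 dim genes. Of single genes, MT1G differed by 0.05 when its probe sets were averaged (mean and median alike) and by -0.18 without shared-target probe sets, SLC30A5 by 0.29 without them, and SLC39A14 by -0.12 as the mean and -0.09 as the median. No paired analysis was possible because each group had 1 array. Detection calls were not used here, so a dim level cannot be told from absence, and 6 of the 31 members were below the median level on both arrays. The other 25 were at or above it on at least 1 array, as were 12828 of all 19775 genes.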
